A study of Mus musculus with 44 samples.

Results

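Blunt joins are junctions in which the last base of one broken DNA end lies directly beside the first base of the other, with no shared base and no added base between them. The junctions came from high-throughput genome-wide translocation sequencing (HTGTS), which amplifies from a fixed cut, the bait, and reads which other sequence, the prey, was joined to it. A join was taken as blunt where the bait and prey alignments of a read met without overlap or gap, and as lying at a motif where the prey junction was more than 10 kb from the bait and under 500 bp from a listed recognition motif of the restriction enzyme AsiSI. The joins were thus selected on the alignment ends of the reads, which also give the bases lost, and those values are description. This rule found 16866 blunt joins among the 78573 junctions at motifs and the 123783 junctions of the 26 AsiSI-bait libraries. Blunt joins thus made up 21.5% of the junctions at motifs.

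The cells were mouse embryonic fibroblasts of the C57BL/6 strain, labelled as wild type, that carry an inducible AsiSI fused to a truncated estrogen receptor (MEF-AsiSI). All AsiSI-bait libraries were from cells given doxycycline at 3 µg per ml for 24 h, with 4-hydroxytamoxifen (4OHT) at 1 µg per ml for the last 6 h, so the controls carried the breaks as well. The 13 control libraries were 11 with the solvent DMSO (6 of the CK-666 experiment, 3 of the NU7441 experiment and 2 of the wiskostatin experiment) and 2 with an empty vector. The 13 treated libraries were 6 with CK-666 at 100 µM, which inhibits the actin nucleator ARP2/3, 3 with NU7441 at 10 µM, which inhibits the repair kinase DNA-PKcs and was given from before 4OHT, 2 with wiskostatin at 3 µM, which inhibits the ARP2/3 activator WASP, and 2 from cells transfected with actin R62D-NLS, a nuclear actin mutant that does not polymerize. The study asked whether DNA-PKcs and nuclear actin act in the joining of these breaks, and it calls its replicates biological. The labels give only replicate numbers, so p-values measure the spread between these libraries.

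In classical non-homologous end joining, Ku and DNA-PKcs hold the broken ends, nucleases such as Artemis and polymerases trim or fill them, and DNA ligase IV seals them, often with few bases lost and little or no shared sequence. Alternative end joining works from ends that have been resected and usually pairs a few bases of microhomology (MH). AsiSI leaves a 3′ overhang of 2 bases on each end, so unaltered ends can pair and restore the motif, whereas a blunt join needs at least 1 of the ends to be altered. Bases lost are counted here from the tip of the overhang: 0 means that the overhang was kept, 2 that it was removed and no more, above 2 that double-stranded DNA was lost as well, and a negative value that the alignment ran past the cut.

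The bait motif lay on chromosome 2 at chr2:13271317-13271324 (build GRCm38, the mm10 of the deposited files). It is shown with the leading prey motifs as 30 bases of the + strand, with the AsiSI motif in capitals, because every blunt structure described here is read against these letters.
bait, chr2:13271306-13271335: accctgtcccaGCGATCGCgcaggcgcaca
Arhgap11a, chr2:113847983-113848012: tcatgtctcctGCGATCGCactgaccgcgg
Romo1, chr2:156144249-156144278: cgtcgagctgaGCGATCGCagcggagaacg
Nup214, chr2:31974690-31974719: ttcgcagggtcGCGATCGCtcgccccacag
Arhgap21, chr2:20968919-20968948: ctcccgcgcccGCGATCGCcgagcgcgaga
Rcor1, chr12:111039078-111039107: tggggcgtaaaGCGATCGCaaacctcaaac

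The following lines give the 6 commonest blunt structures as they read where the bait met the right-hand end of the Arhgap11a motif. Each line has 12 bait bases and then 12 prey bases, and the capitals mark what was left of the motif on either side.
bait loss 2, prey loss 2: cctgtcccaGCGCGCactgaccgc
bait loss 1, prey loss 2: ctgtcccaGCGACGCactgaccgc
bait loss 2, prey loss 1: cctgtcccaGCGTCGCactgaccg
bait loss 12, prey loss 0: aggaacacacccATCGCactgacc
bait loss 5, prey loss 0: caccctgtcccaATCGCactgacc
bait loss 3, prey loss 0: ccctgtcccaGCATCGCactgacc
These sequences stood unbroken in 23 of 26, 25 of 25, 17 of 19, 10 of 10, 9 of 9 and 10 of 10 deposited reads of those structures at that end, in the order shown.

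The blunt joins clustered tightly at the cut. The commonest structure had lost exactly the overhang on each end and held 1936 joins (11.5% of all blunt joins), seen in 26 of 26 libraries and at 410 prey ends of 242 motifs. Removal of 1 bait base and 2 prey bases followed with 1682 joins (9.97%) at 375 prey ends, and removal of 2 bait bases and 1 prey base with 1553 (9.21%) at 349 prey ends. Together these 3 structures held 5171 joins (30.7%), whereas the next commonest, with 12 bait bases lost and the prey overhang kept, held 451. Losses of 5 and of 3 bait bases with the prey overhang kept held 436 and 298, and the other 4 of the 10 commonest held 233 to 283. In the 13 control libraries the leading structure took 11.1% ± 4.93 (SD, n = 13) of blunt joins, with a range from 5.03% to 21.8%. Of the 1379 structures seen, 755 were seen 1 time. Repeats had been removed from the deposited junctions, so within a library a structure counted about 1 time per prey end. The leading structure had 121 joins at 118 prey ends in empty vector replicate 1 and 174 at 167 in actin R62D-NLS replicate 1. Counts of a structure are thus close to counts of prey ends and do not measure how often it formed at an end.

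**Figure D1:**
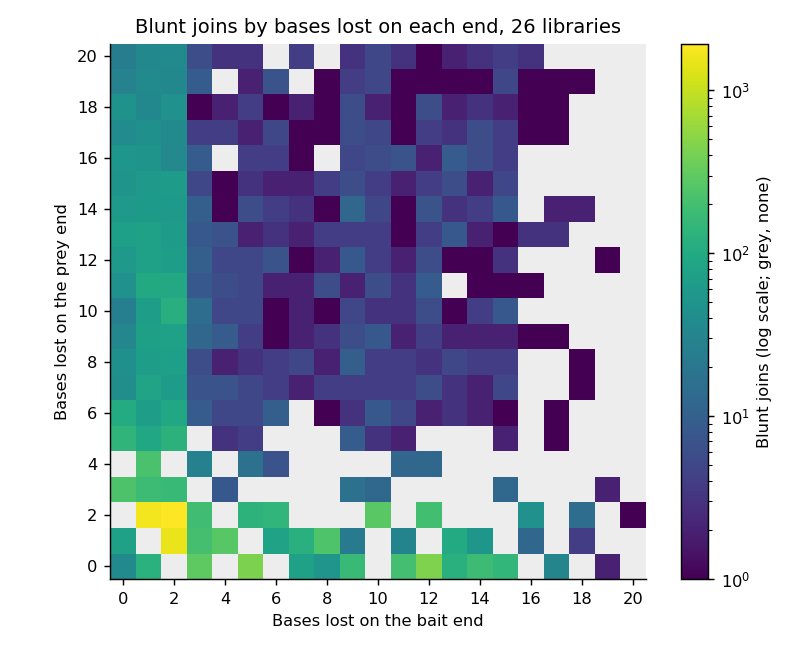
Blunt joins of all 26 libraries by bases lost on the bait end (x axis) and on the prey end (y axis), on a logarithmic colour scale with grey for none. The brightest cells are the 3 structures with 1 or 2 bases lost on each end, and arms of lower counts run along both axes; the plotted range holds 14454 of the blunt joins (85.7%).

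Not every pair of losses could appear as blunt, because a base that fits both ends is counted as overlap. With 1 base lost on each end, or with 2 lost on one end and 0 on the other, the motif is restored, and these 3 structures held 0 blunt joins. The bait and motif letters forbade a blunt call in 24 of the 60 combinations of 0 to 19 bait bases and 0 to 2 prey bases, and these 24 held 0 blunt joins and 881 junctions with overlap. The 36 permitted combinations held 9733 blunt joins. Keeping both overhangs was permitted but rare, at 36 joins, as was keeping the bait overhang with 1 prey base lost, at 75. Across the blunt joins whose windows could be read, 0 of 16488 had a reference base that fitted both sides, and the last 8 bait bases and the first 8 prey bases of the read matched the reference in 98.4% and 98.9%.

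Loss on one end and loss on the other were rarely both long. Of the 16866 blunt joins, 32.1% had lost 0 to 2 bases on both ends, 29.9% had lost 0 to 2 on the bait and 3 or more on the prey, 25.7% had lost 3 or more on the bait and 0 to 2 on the prey, and 7.73% had lost 3 or more on both. On the bait end 31.1% had lost exactly 2 bases and 21.7% exactly 1. On the prey end these shares were 27.6% and 16.5%. The median loss was 2 bases on either end, with an upper quartile of 5 on the bait and 9 on the prey. Bait loss never passed 21 bases, where the nested primer bounds what a read can show, while 9.95% of blunt joins had lost over 20 prey bases and 2.66% over 100. Prey alignments that ran past the cut were 3.27% of blunt joins.

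**Figure D2:**
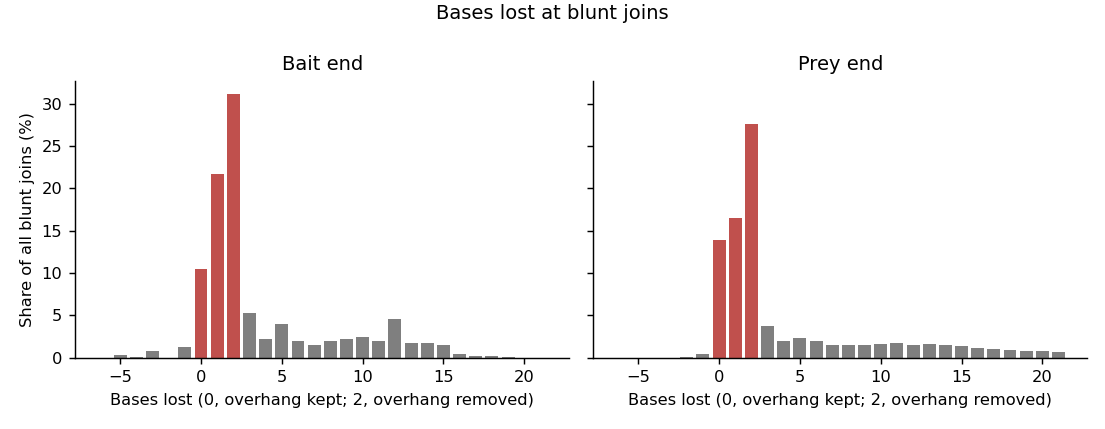
Share of all blunt joins of 26 libraries (y axis, percent) by bases lost on the bait end (left panel) and on the prey end (right panel), with 0 to 2 bases in red and other losses in grey. The highest bar is at 2 bases on either end, 31.1% on the bait and 27.6% on the prey.

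The other junctions at motifs were 29533 with an overlap of 1 to 5 bases, 22791 with an overlap of 6 or more and 9383 with inserted bases. Just outside the rule, 13204 junctions shared 1 base and 2434 carried 1 inserted base. The distance limit cut through a flat tail, with 133 blunt joins between 400 and 500 bp from a motif and 131 between 500 and 600 bp, against 11014 within 5 bp. Shared bases are assigned to both ends, so bases lost per end depend on the rule itself and are given without a test. In the control libraries 61.3% ± 5.90 (SD, n = 13) of blunt joins had lost 0 to 2 bait bases, against 19.3% ± 6.10 of the other junctions. On the prey end the shares were 58.6% ± 7.09 and 15.96% ± 3.33. The total lost over both ends, with shared bases counted as lost, does not depend on which end they are given to. Its median was 6 bases for blunt joins, 13 for short overlaps and 2 for long overlaps, of which 90.2% had lost exactly 2, the number that leaves the motif whole. A total of 0 to 4 bases was reached by 37.9% ± 10.1 of blunt joins, 4.66% ± 1.65 of short-overlap joins and 5.06% ± 2.99 of joins with insertions. For joins with insertions the median total was −46, and 59.7% of their prey alignments ran past the cut. Their low share therefore does not mean that more bases were lost. Prey reads of blunt joins led away from the cut in 96.4% ± 1.65 of cases.

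Chromosome was not part of the rule, but side was scored from the prey junction position, which shifts with shared bases. The junction lay on the right-hand, telomere side of the cut in 52.1% ± 2.66 (SD, n = 13) of blunt joins. It did so in 49.8% ± 1.30 of the other junctions of the same control libraries. The difference was 2.27 percentage points, positive in 12 of 13 libraries. An exact two-sided sign-flip test over libraries gave p = 0.0027 and adjusted p = 0.0027 over side and chromosome. Where the prey alignment ran past the cut, as in 94.5% of long overlaps, this side is opposite to the retained end. The test therefore does not compare retained ends. By strand, the right-hand end was retained in 51.8% of blunt joins, 51.4% of short overlaps, 50.01% of long overlaps and 50.2% of insertions (26 libraries, not tested). By orientation, 51.5% of the 11332 blunt joins to other chromosomes were on the + strand, which gives a chromosome with 1 centromere from bait and prey. On chromosome 2 above the bait 2882 joins were on the + strand, the orientation of a deletion, and 2604 on the − strand, that of an inversion. Below the bait there were 48 blunt joins.

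Blunt joins lay on chromosome 2 in 34.6% ± 4.55 (SD, n = 13) of cases and the other junctions in 27.7% ± 1.60. The difference of 6.92 percentage points was positive in 12 of 13 control libraries (exact sign-flip test, two-sided, adjusted p = 9.8e-04 over side and chromosome). Without overlaps of 6 or more the difference was 0.72 points (exact sign-flip test, p = 0.61). Against short overlaps alone it was 1.20 points, and 15.2 points against long overlaps (exact sign-flip tests, adjusted p = 0.53 and 0.0015 over 6 comparisons). The same held for cutting frequency. The blunt share was 22.02% ± 5.72 at the frequently cut sites (97 listed, with the bait, which the rule excludes) and 16.6% ± 6.82 at the other motifs. It was higher at the former in 13 of 13 libraries, by 5.44 points (exact sign-flip test, adjusted p = 9.8e-04 over 4 comparisons). Without long overlaps the shares were 29.5% ± 5.16 and 30.3% ± 7.72, a difference of −0.85 points (adjusted p = 0.47, same exact test).

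The deposited junctions had already been reduced to few repeats. Within a library no 2 junctions shared the prey position, strand, bait end and start of the prey in the read, and between 0% and 6.71% of blunt joins (median 2.38%) repeated the prey position, strand, bait end and overlap of another. Across the 13 control libraries the share of long overlaps fell with the logarithm of junctions at motifs (Pearson r = −0.92, permutation p = 2.0e-05, adjusted p = 8.0e-05; Spearman correlation = −0.87, permutation p = 1.9e-04) and the blunt share rose (r = 0.65, permutation p = 0.015, adjusted p = 0.031; Spearman correlation = 0.75, permutation p = 0.0046). Without the 2 libraries farthest in depth r was −0.88 and 0.52. The blunt share without long overlaps gave r = 0.27 (permutation p = 0.38, adjusted p = 0.38; Spearman correlation = 0.58, permutation p = 0.039), and 0.14 without those 2. The short-loss share of blunt joins gave r = −0.52 (permutation p = 0.066, adjusted p = 0.089; Spearman correlation = −0.62, permutation p = 0.027), and −0.44 without those 2. With sequencing run as a block, a fit added after seeing the data, over the 11 control libraries in 4 runs of more than 1, r was −0.95 for long overlaps (exact permutation within runs, adjusted p = 0.0035), 0.83 for the blunt share (adjusted p = 0.0035, same exact test), 0.56 for the blunt share without long overlaps (adjusted p = 0.016, same exact test) and −0.18 for the short-loss share (adjusted p = 0.48, same exact test). The Spearman correlations of that fit, in the same order, were −0.94, 0.88, 0.87 and −0.64. Their adjusted p was 0.0069, 0.0069, 0.021 and 0.056 (same exact test). No run held 6 control libraries, so no value within a single run is given.

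Blunt joins were found at 300 of the 1108 listed motifs other than the bait, on 20 chromosomes, and 377 motifs had any junction. The 10 leading motifs held 4730 blunt joins (28.0%), against 21.7% of the other junctions. The frequently cut sites held 11125 (66.0%), at 93 of 97 sites, a list that includes the bait, which the rule excludes. The motif with most blunt joins, 672 of 2180 junctions, lay in a coding exon of Arhgap11a at chr2:113847994-113848001. Its blunt joins numbered 0 to 135 a library with a median of 23, and its blunt share over the 13 control libraries ran from 22.2% through a median of 30.5% to 40.9%. The motif in an untranslated region of Romo1, a mitochondrial membrane protein gene, at chr2:156144260-156144267, followed with 664 of 2827 junctions, and its control shares ran from 9.26% through 24.2% to 33.1%. An intronic motif of Nup214, a nuclear pore protein gene, at chr2:31974701-31974708, had 608 of 2204. The intergenic motif 53 bp from the start of Arhgap21 had 489, and that in an untranslated region of Dnmt3b, a de novo DNA methyltransferase gene, had 452. The motif beside Samhd1, which encodes an enzyme that breaks down deoxynucleotides, had 437, and an intronic motif of the gene Gm13610 had 386. Off chromosome 2, the motif near Mex3a, an RNA-binding protein gene on chromosome 3, had 368 and that near Rcor1, a chromatin corepressor gene on chromosome 12, had 367. A motif in an untranslated region of Egfl7, which encodes a secreted endothelial factor, had 287.

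The orientation of blunt joins differed between these motifs. At Dnmt3b 76.8% and at Arhgap21 66.5% were on the + strand, against 37.8% at Romo1 and 36.6% at Samhd1, and Arhgap11a (51.0%) and Nup214 (51.5%) were near equality. Short-loss joins ran from 15.1% of blunt joins at Arhgap21 to 26.8% at Egfl7. These values are pooled over 26 libraries and were not tested. The strand of the other junctions at each motif was not compared, so the strand shares cannot be called particular to blunt joins.

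The blunt share of single motifs was tested at the 141 motifs with at least 100 junctions over the control libraries and junctions in at least 10 of them. Each was compared with the other motifs of the same libraries by an exact sign-flip test with Benjamini-Hochberg adjustment. The blunt share differed from the other motifs at 25 of 141 (17.7% called), higher at 10 (7.09%) and lower at 15 (10.6%), and shares ran from 6.43% to 34.7% with a median of 22.8%. The highest was at chr10:128548254-128548261 in an untranslated region of Rpl41, a ribosomal protein gene, with 68 blunt of 196 junctions (34.7%), 11.5 points above the other motifs but higher in only 8 of 12 libraries (adjusted p = 0.046, exact sign-flip). The adjusted p was between 0.069 and 0.097 without any 1 of 8 control libraries (empty vector 1, CK-666 DMSO 3, 4 and 6, NU7441 DMSO 1 and 3, wiskostatin DMSO 1 and 2; exact sign-flip) and 0.16 within 50 bp of motifs. The Rcor1 motif followed at 32.8%, higher by 10.2 points in 13 of 13 libraries (adjusted p = 0.0076, exact sign-flip), although the adjusted p was 0.060 without long overlaps. The motif in an untranslated region of Clp1, an RNA kinase gene, at chr2:84727323-84727330 stood at 32.2% and did not pass (adjusted p = 0.093, exact sign-flip). The lowest share was in a coding exon of Grsf1, a mitochondrial RNA-binding protein gene, at chr5:88675796-88675803, with 9 blunt of 140 junctions (6.43%), 15.7 points below the other motifs in 11 of 12 libraries (adjusted p = 0.013, exact sign-flip). An intergenic motif near Enah, which encodes an actin regulator, had 10 of 109 (9.17%, 12.7 points lower, adjusted p = 0.0076, exact sign-flip). A motif near Usp6nl, which encodes a Rab GTPase-activating protein, had 21 of 221 (9.50%, 12.9 points lower, adjusted p = 0.033, exact sign-flip). Its adjusted p was 0.086 without long overlaps and between 0.051 and 0.072 without any 1 of 7 control libraries (those just named other than NU7441 DMSO 1; exact sign-flip).

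**Figure D3:**
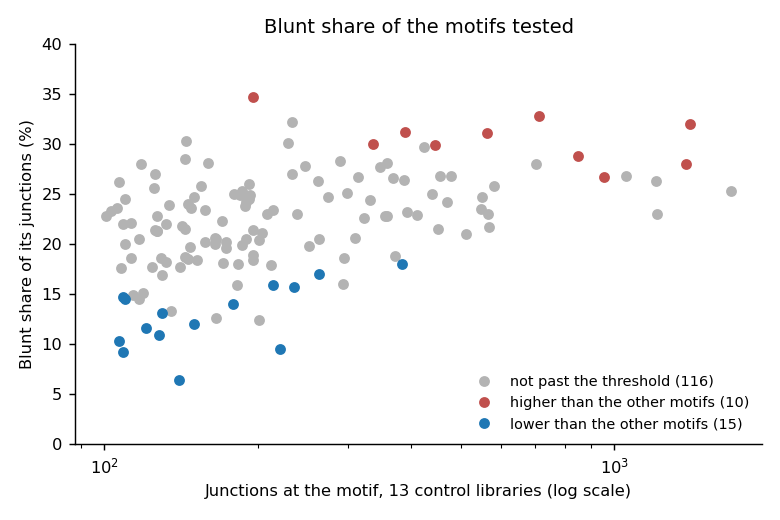
Blunt share (y axis, percent) of each of the 141 tested motifs against its junctions in the 13 control libraries (x axis, logarithmic), with motifs above the others in red, below in blue and those not past the threshold in grey. The 10 higher motifs are mostly on the right and the 15 lower mostly on the left.

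The calls moved with the number of junctions at the motif. Of the 47 motifs with the most junctions 9 were called higher and 2 lower, and of the 47 with the fewest 0 were called higher and 8 lower. The median blunt share was 25.1% in the former and 20.5% in the latter, the median share of long overlaps 18.9% and 34.6%, and the median blunt share without long overlaps 31.3% and 31.2%. The part of junction number in the calls was not tested beyond this. Without long overlaps 10 of 101 motifs passed, 7 of them among the 25.

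With NU7441 a larger share of blunt joins had short loss in every pair, although 3 pairs cannot pass the test. With NU7441, 77.5%, 65.6% and 56.3% of blunt joins in replicates 1 to 3 had lost 0 to 2 bases on both ends, and in the paired DMSO libraries 51.0%, 33.5% and 20.1%. Each treated library lay above its control by 26.5 to 36.2 points, and the lowest NU7441 library was above all 13 control libraries, of which the highest was at 51.0%. The mean difference was 31.6 points ± 4.88 (SD, n = 3 pairs), with an exact sign-flip p of 0.25, the smallest that 3 pairs allow, and an adjusted p of 0.33 over 4 tests. The difference was 29.3 points in the run of replicates 1 and 2 and 36.2 in that of replicate 3. The NU7441 libraries were shallower than their controls, with 1036, 540 and 5260 junctions at motifs against 2357, 1746 and 11669. The part of depth, and of the limit of about 1 join per structure and prey end in a library, was not tested. The 10 control libraries with fewer junctions than NU7441 replicate 3, all from other runs, ran from 26.1% to 51.0%, below its 56.3%. In that replicate's run, pair 1 of wiskostatin and of actin R62D-NLS also had shallower treated libraries. Their short-loss shares were 14.7 and 18.02 points above control, against 36.2 with NU7441. The treated library was deeper in CK-666 pairs 1 and 4, wiskostatin pair 2 and actin R62D-NLS pair 2. Differences were then 1.51, −1.29, −3.62 and −3.42 points. With shallower treated libraries, CK-666 pairs 2, 3, 5 and 6 gave 12.2, 2.68, 14.8 and −0.52.

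**Figure D4:**
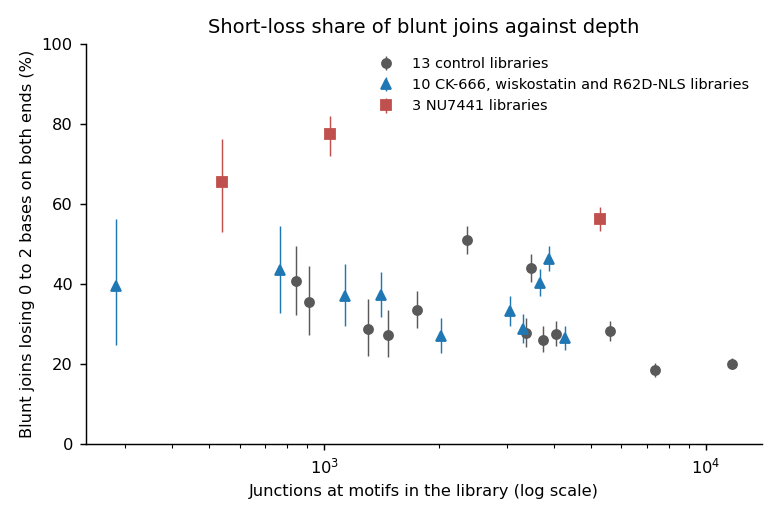
Share of blunt joins that lost 0 to 2 bases on both ends (y axis, percent) against junctions at motifs in the library (x axis, logarithmic); points are libraries, bars are 95% Wilson intervals, and shapes separate control, NU7441 and other treated libraries. The 3 NU7441 libraries lie between 56.3% and 77.5%, above the other 23 libraries, which reach 51.0%.

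The other blunt joins, with more than 2 bases lost or a negative loss on either end, were rarer with NU7441 in each pair. As a share of all junctions at motifs they were 5.69%, 3.89% and 8.21% with NU7441 and 15.95%, 14.7% and 22.1% in the controls, a mean log2 ratio of −1.61 ± 0.27 (SD, n = 3 pairs). Short-loss blunt joins were 19.6%, 7.41% and 10.6% with NU7441 and 16.6%, 7.39% and 5.56% in the controls, a mean log2 ratio of 0.39 ± 0.48. Without overlaps of 6 or more, short-loss blunt joins were 44.5%, 21.4% and 13.6% of junctions with NU7441 and 23.7%, 10.6% and 6.51% in the controls, a mean log2 ratio of 0.99 ± 0.08 (SD, n = 3 pairs). The other blunt joins were then 12.9%, 11.2% and 10.5% against 22.8%, 21.1% and 25.9%, a mean log2 ratio of −1.01 ± 0.25. On both scales the groups overlapped for short loss and did not for the other blunt joins. This split was chosen after the values were seen and has no test. The exact overhang removal took 37.0%, 26.2% and 21.3% of blunt joins with NU7441 and 21.8%, 12.99% and 6.75% in the controls. The 95th percentile of prey loss was 7.95, 5 and 28 bases with NU7441 and 33.7, 29.8 and 48.5 bases in the controls.

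The blunt share as a whole was 25.3%, 11.3% and 18.8% with NU7441 and 32.5%, 22.1% and 27.7% in the controls, lower in 3 of 3 pairs. The mean log2 ratio was −0.63 ± 0.31 (SD, n = 3 pairs; exact sign-flip p = 0.25, adjusted p = 0.33), and the groups overlapped. It was −0.03 once overlaps of 6 or more were left out, where the shares were 57.5%, 32.6% and 24.2% against 46.5%, 31.8% and 32.4%. Long overlaps themselves were 56.0%, 65.4% and 22.1% of junctions with NU7441 against 29.95%, 30.6% and 14.6%.

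With CK-666 the blunt share of all junctions at motifs differed from that of its controls by less than the spread between pairs, and the share without long overlaps was higher in every pair. The 6 CK-666 libraries ran from 9.96% through a median of 15.8% to 19.4%, and the 6 DMSO libraries from 11.5% through 16.3% to 19.9%. The mean log2 ratio over pairs was −0.08 ± 0.18 (SD, n = 6), lower in 4 of 6 pairs (exact sign-flip p = 0.41, adjusted p = 0.41), with −0.05 in the run of 4 pairs and −0.13 in that of 2. Without long overlaps the log2 ratio was 0.076, with the blunt share higher in 6 of 6 pairs, so the direction depended on those overlaps. The exact sign-flip p was 0.031, unadjusted and the smallest that 6 pairs allow. This was 1 of 6 alternative settings, and the other 5 kept the direction of the main value. The short-loss share of blunt joins ran from 26.4% through 32.8% to 43.4% with CK-666 and from 26.1% through 27.6% to 35.4% with DMSO, a mean difference of 4.89 points ± 6.85 (SD, n = 6; exact sign-flip p = 0.16, adjusted p = 0.33). The mean was 6.86 points in the run of 2 pairs and 3.91 in that of 4, and the largest differences were in pairs 2 and 5, whose CK-666 libraries had 285 and 763 junctions at motifs.

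Wiskostatin and actin R62D-NLS had 2 pairs each and no test. The blunt share was 19.2% and 21.3% with wiskostatin against 23.8% and 22.3% in its DMSO controls, a mean log2 ratio of −0.19. With actin R62D-NLS it was 24.4% and 20.03% against 22.7% and 14.6% with the empty vector, a mean log2 ratio of 0.28. Short-loss joins were 33.2% and 40.4% of blunt joins with wiskostatin against 18.5% and 44.0%, and 46.3% and 37.2% with actin R62D-NLS against 28.3% and 40.7%. In both experiments the pairs moved in opposite directions on this measure.

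**Figure D5:**
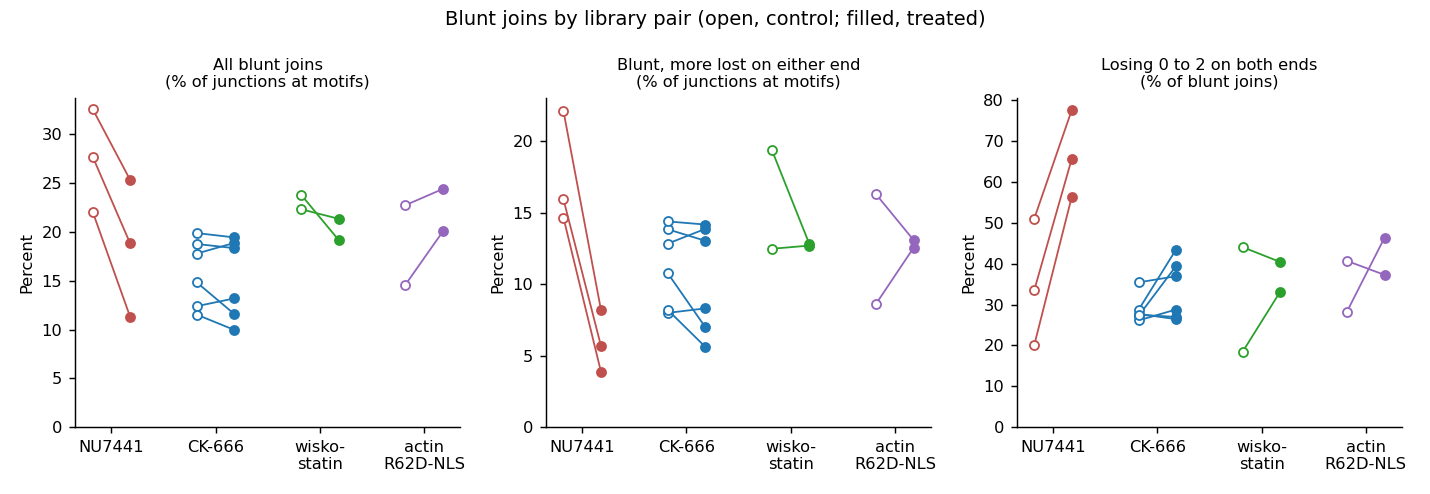
Percent of junctions at motifs that were blunt (left), that were blunt with more than 2 bases lost or a negative loss on either end (middle), and percent of blunt joins that lost 0 to 2 bases on both ends (right), for each control library (open) joined to its treated library (filled). The 3 NU7441 treated libraries are below their controls in the left and middle panels and above them in the right panel, while pairs of the other treatments go both ways in the right panel.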

How the data were processed

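HTGTS junctions were measured in 32 libraries, 26 of the AsiSI bait and 6 of a Cas9 cut at the same locus. The 12 samples of Hi-C were not used here. The authors aligned reads to mm10 with Burrows-Wheeler Aligner, filtered junctions with the default settings of a translocation pipeline and deposited 1 junction per line with alignment ends and read sequence. The deposited values are coordinates, not counts; libraries held 362 to 18428 junctions.

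Overlap was the bait read end minus the prey read start plus 1. Bases lost were taken from the alignment ends against 1109 listed motifs, all found in GRCm38, with GENCODE annotation. Control and treated libraries of the same number were paired. Exact sign-flip tests over pairs or libraries and Benjamini-Hochberg adjustment were used, with 100000 permutations for correlations (Python 3.11.15, numpy 2.4.6, pandas 2.3.3, scipy 1.17.1). On simulated data the motif test called 8 of 15 motifs with an odds ratio of 0.5, 6 of 15 with 2 and 0 of 111 with 1. The simulated odds ratio of a motif was the same in every library, with counting error only. Wilson intervals (95%) cover counting error only. Alternatives were counting each structure 1 time, 50 bp, frequently cut sites, no long overlaps, 5 Mb from the bait, no replicate block, other library sets and leaving out replicates. Named motifs were the 10 with most blunt joins and the 3 highest and 3 lowest in share. Members, motifs and tests were chosen with earlier results of these data known.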

Additional observations from a re-analysis of the deposited data

Results flagged for a closer look

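In the DMSO libraries of the CK-666 experiment, replicate 1 stood apart from the other 5 in the share of blunt joins that lost 0 to 2 bases on both ends, at 35.4%. It was the shallowest of the 6, with 912 junctions at motifs and 113 blunt joins. It was the only such value among 18 combinations of group and measure examined, of which chance gives about 1 in 20. The part of depth in it was not tested.

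The 6 libraries of the Cas9 bait, made in wild-type fibroblasts, entered no comparison above, yet 69 blunt joins lay at AsiSI motifs there, at 42 motifs. They were among 659 junctions within 500 bp of a motif, 3.39% of 19414 junctions away from the bait, against 69.1% for the AsiSI bait. Of the 69, 29 had a loss of 0 to 2 on both ends as counted from the AsiSI cut. Their bait end was cut by Cas9, so this count does not give the bases lost from that end. Of the 69, 57 had the prey position, strand and bait end of a blunt join of an AsiSI-bait library. The 3 CK-666 libraries of the Cas9 bait held 35, 2 and 19 of the 69 joins, and the 3 DMSO libraries 2, 3 and 8. Their source was not tested.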

How the results depend on the processing

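CK-666 reversed in blunt share without overlaps of 6 or more, to a log2 ratio of 0.076 (exact sign-flip p = 0.031, unadjusted). Its difference in short-loss share was 8.54 points with 0 to 5 bases in place of 0 to 2 (exact sign-flip p = 0.031, unadjusted). That range was chosen after seeing the data. The chromosome 2 difference fell to 0.72 points without long overlaps. Motifs called numbered 16 within 50 bp, 10 without long overlaps and 50 over all 26 libraries, and the cause was not tested. Over the 6 DMSO libraries alone 0 of 39 tested were called, with 10 at an unadjusted p under 0.05 (exact sign-flip). With 6 libraries that test cannot give p below 0.031. Adjusted over 39 motifs, 10 at that floor cannot pass, so the 0 says nothing of the stability of the calls. Leaving out each control library gave 16 to 27 calls, with 16 without NU7441 control replicate 3 and 16 without empty vector replicate 1. Leaving out each pair gave log2 ratios of −0.76 to −0.46 for NU7441 in blunt share and 29.3 to 34.1 points in short loss, and for CK-666 −0.11 to −0.02 and 2.92 to 6.13 points.

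Deviations of same-numbered libraries correlated between −0.06 and 0.29 for NU7441 and between −0.11 and 0.13 for CK-666, so the pairing rests on the shared number and run. With no replicate block, exact permutation p was 0.20 for blunt share (log2 ratio −0.63) and 0.10 for short loss (31.6 points) with NU7441, and 0.73 (−0.08) and 0.14 (4.89 points) with CK-666; no call changed. With 3 pairs or fewer no test could pass, so these say nothing of stability, and the NU7441 log2 ratio in blunt share was −0.03 without long overlaps. The shares of long overlaps and of blunt joins moved with depth.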
